A study of Homo sapiens with 12 samples.

Results

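The ERBB family comprises receptor tyrosine kinases at the cell surface and the growth factors that bind them. The genes described here are 8 of its members, chosen by symbol: the receptors EGFR, ERBB2 and ERBB3 and the ligands AREG, EREG, HBEGF, TGFA and NRG1. They are 8 of 33694 human genes listed in the count files, and each was found there. Expression was measured in the human melanoma line A375, which carries an activating BRAF mutation, and in A375-BIR, a resistant derivative of it. Cells of each line received either 0.1% DMSO, the solvent, or the BRAF inhibitor dabrafenib at 200 nM for 48 h, all in RPMI medium with 10% fetal bovine serum. Each of the 4 groups had 3 libraries of 3′ ends, and no label says that A375-BIR was kept in inhibitor before the treatment. How A375-BIR was derived, and whether it is 1 clone, is not given in the sources used here.

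EGFR binds AREG, EREG, HBEGF and TGFA, and the active receptor pairs with itself or with ERBB2, which has no known ligand of its own. ERBB3 has a weak kinase, binds neuregulins such as NRG1, and signals mainly in pairs with ERBB2. The ligands are made as membrane-bound precursors that metalloproteases cut free, and several of them are known transcriptional targets of the ERK pathway, which BRAF inhibitors block. In melanocytic cells ERBB3 is a known receptor of the lineage, whereas EGFR is known in melanoma for its increase in cells resistant to BRAF inhibitors.

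Promoters are shown for EGFR and HBEGF, which were higher in A375-BIR, and for AREG, whose reads were lowest in dabrafenib in each line. They come from the RefSeq promoter table (GRCh38.p14), which has an entry for 6 of the 8 members, and each is printed 5′ to 3′ on the gene's strand from 250 bases before the annotated start to the last base before any GENCODE 29 exon of the gene. Capitals mark matches, on either strand, to the AP-1 letters TGANTCA, the SOX letters ACAAAG, the TEAD letters GGAATG or the cAMP response element letters TGACGTCA. The last of these 4 motifs was added after the sequences had been read, and no 2 matches overlapped.
EGFR, main start, chr7:55018767-55019016, plus strand: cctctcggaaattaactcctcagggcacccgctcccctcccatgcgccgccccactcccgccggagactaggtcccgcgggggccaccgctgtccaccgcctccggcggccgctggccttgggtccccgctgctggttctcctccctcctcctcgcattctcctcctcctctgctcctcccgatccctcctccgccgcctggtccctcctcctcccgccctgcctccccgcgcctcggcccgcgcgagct
EGFR, internal start, chr7:55109589-55109722, plus strand: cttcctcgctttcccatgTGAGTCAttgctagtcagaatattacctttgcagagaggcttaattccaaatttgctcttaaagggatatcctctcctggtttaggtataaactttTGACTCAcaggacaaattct
AREG, chr4:74444886-74445133, plus strand: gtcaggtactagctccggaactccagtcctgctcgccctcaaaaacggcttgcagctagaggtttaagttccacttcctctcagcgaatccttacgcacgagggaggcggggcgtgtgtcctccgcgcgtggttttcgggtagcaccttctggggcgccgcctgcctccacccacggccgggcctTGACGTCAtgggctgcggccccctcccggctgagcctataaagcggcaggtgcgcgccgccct
HBEGF, chr5:140346632-140346853, minus strand: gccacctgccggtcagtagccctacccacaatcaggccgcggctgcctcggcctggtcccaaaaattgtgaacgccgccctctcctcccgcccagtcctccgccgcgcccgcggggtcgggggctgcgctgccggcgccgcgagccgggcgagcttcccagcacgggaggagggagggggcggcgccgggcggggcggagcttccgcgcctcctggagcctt

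The stretch before the main EGFR start has a GC content of 73.6% and held none of the 4 motifs, nor did that of HBEGF, with 76.1%. The stretch before the internal EGFR start, which lies within the gene, has a GC content of 39.6% and held AP-1 letters at positions -232 and -136, counted from the start. AREG held the full cAMP response element at position -65. Outside the stretches shown, the windows of the members held AP-1 letters in ERBB2 (-222), which was not called between the lines with all 10 libraries. They also held TEAD letters in EREG (-175) and at the internal EGFR start (-114), and SOX letters in TGFA (-114). Over the whole 300-base windows of 35116 promoters in that table, 7.71% held the AP-1 letters, 16.1% the SOX letters, 14.03% the TEAD letters and 1.85% the cAMP response element. These windows are longer than the stretches shown. A match is a stretch of letters, not a measured binding site. Reads from 3′ ends do not tell which start was used.

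Of 12 libraries, 10 list human genes and enter every value here. The files of A375 DMSO replicates 2 and 3 list mouse genes, although their labels state human, and were left out, so that A375 with DMSO rests on 1 library. Its files also carry a different run label from the other 9, and in each comparison with it the run and the group cannot be told apart. The 10 libraries hold 198690 to 1999840 reads on genes. A count of 0 in a library allows up to 1.5 to 15.1 CPM, the counts of a gene scaled to a common library total, at 3 counts of its total. Mitochondrial genes took 4.63% to 7.21% of gene reads in A375-BIR, 10.7% to 15.1% in A375 with dabrafenib and 15.1% in A375 with DMSO. The part of these differences in the results was not tested.

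Levels are given in CPM with totals scaled by TMM, which correct for library size and composition but not for transcript length. Differences are log2 values from edgeR's quasi-likelihood test, fitted over 10236 genes. Their standard errors were computed from its F statistics, and approximate 95% intervals use them with 6 degrees of freedom. The p-values come from the F test itself, so that an interval and a p-value can disagree. Calls were made where the Benjamini-Hochberg adjusted p, over those genes, was under 0.05. Of the 8 members 7 were tested, and EREG, without a read, was not. EGFR, AREG and NRG1 passed the filter on low counts through A375-BIR libraries alone, so that a count of called members in a comparison of the lines is a description and no support for a difference of the set. In bulk samples, fewer cells that express a gene and less RNA per cell cannot be told apart.

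**Figure D1:**
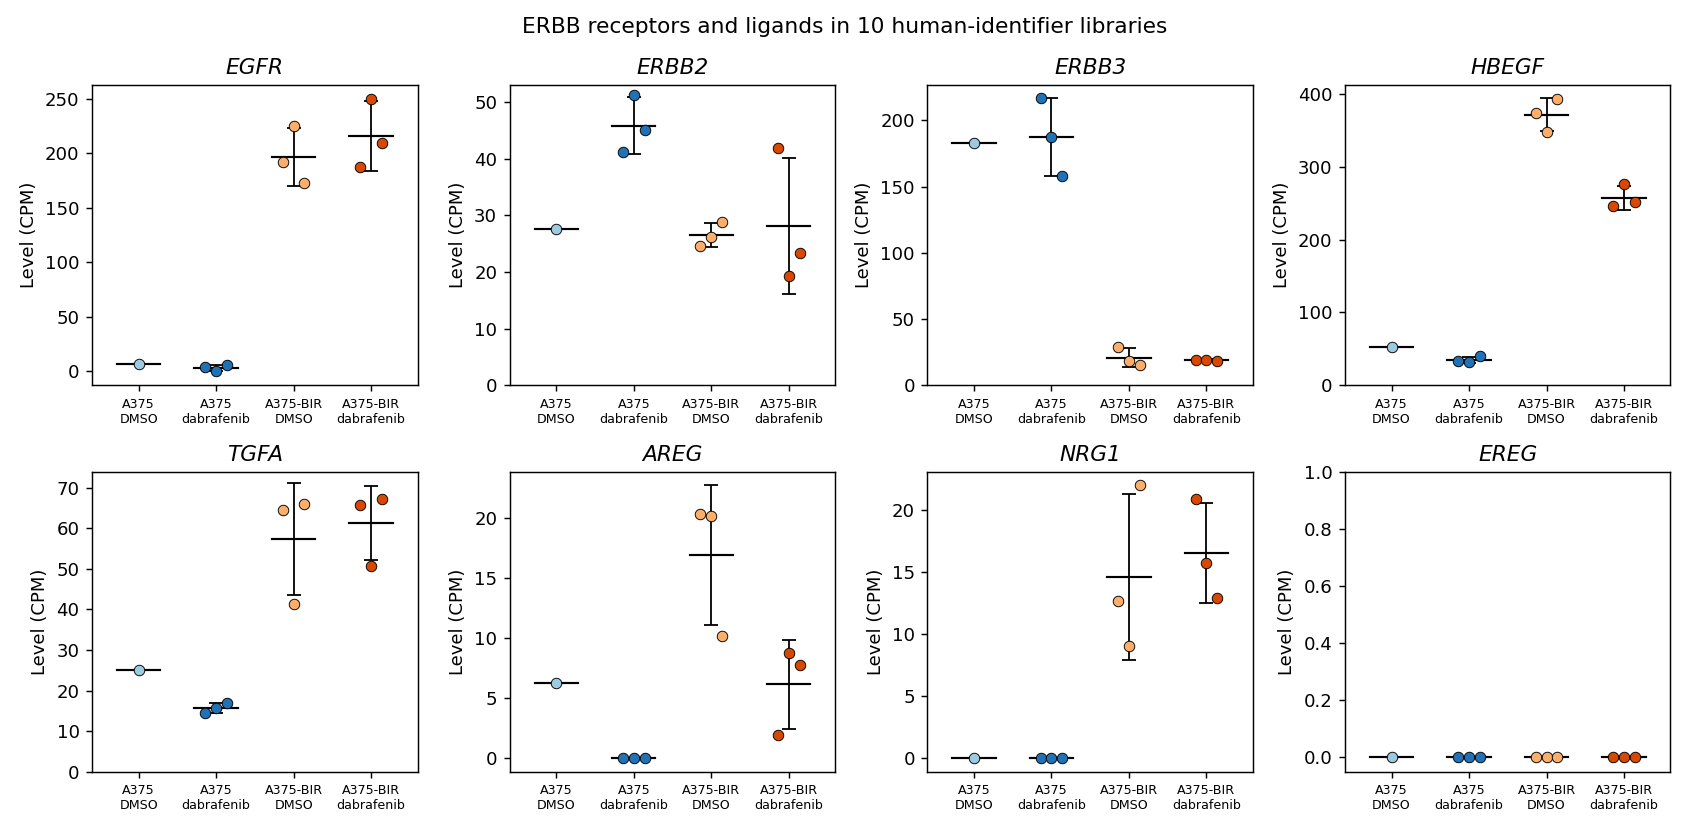
Level of each receptor and ligand gene in CPM (y axis, scales differ between panels) in each of the 10 libraries that list human genes, by group (x axis). Points are libraries, black lines are group means and bars are SD over 3 libraries, with no SD for A375 DMSO (1 library). EGFR lies at 173 to 250.2 CPM in the 6 A375-BIR libraries and at 0 to 6.91 in the 4 of A375, and ERBB3 shows the reverse order.

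EGFR, the receptor for AREG, EREG, HBEGF and TGFA, was higher in every A375-BIR library than in every A375 library. It is ENSG00000146648, on chromosome 7 from 55019021 to 55211628 (GRCh38, plus strand). A375-BIR libraries with DMSO had 192, 225 and 173 CPM and those with dabrafenib 188, 250.2 and 209.6 CPM. The A375 DMSO library had 6.91 CPM (11 reads), and the A375 dabrafenib libraries had 4.12, 0 and 5.64 CPM, which are 2, 0 and 1 reads. The A375 libraries held 0 to 11 reads of it, and the A375-BIR groups overlapped each other. In dabrafenib the reads of A375-BIR and A375, 421 and 3, gave a ratio of 77.6 (exact 95% counting interval 26.4 to 378), with an edgeR adjusted p of 3.01e-15. The fitted difference was 6.22 ± 0.41, and it was 6.92 without A375 dabrafenib replicate 1 and 5.51 without replicate 2. By p, EGFR ranked 53 of 10236 genes in that comparison. In DMSO the difference was 4.81 ± 0.38, or 27.97-fold, with an edgeR adjusted p of 5.14e-13, against the lone A375 library.

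Dabrafenib left EGFR without a call in either line. In A375-BIR the means were 197 ± 26.3 CPM with DMSO and 216 ± 31.8 with dabrafenib (SD, n = 3 each), a change of 0.12 ± 0.17 with an approximate 95% interval of -0.31 to 0.54 and an edgeR adjusted p of 0.835. In A375, where the reads are few, the ratio of dabrafenib to DMSO was 0.391 (exact 95% counting interval 0.0701 to 1.48), with an edgeR adjusted p of 0.223. An antisense gene that overlaps EGFR, EGFR-AS1, had 0 reads in the 10 libraries.

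ERBB3, the neuregulin receptor, had the opposite order. It is ENSG00000065361, on chromosome 12 from 56076799 to 56103505 (plus strand). The A375 DMSO library had 183 CPM and the A375 dabrafenib libraries 217, 187 and 158 CPM, while A375-BIR had 28.8, 18.1 and 15.2 CPM with DMSO and 19.04, 19.2 and 18.1 CPM with dabrafenib. The lowest A375 library thus lay well above the highest of A375-BIR. ERBB3 was lower in A375-BIR by 10.1-fold in dabrafenib, a difference of -3.33 ± 0.26 with an edgeR adjusted p of 2.31e-13. In DMSO it was lower by 8.34-fold, a difference of -3.06 ± 0.26 with an edgeR adjusted p of 2.29e-12. Neither response to dabrafenib was called: the change was -0.20 ± 0.32 in A375-BIR (approximate 95% interval -0.98 to 0.57, edgeR adjusted p = 0.846) and 0.07 ± 0.24 in A375 (-0.51 to 0.65, edgeR adjusted p = 0.842). A readthrough gene on the same strand, AC034102.2, had 3 reads in all, and reads lying on both genes cannot be counted here.

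ERBB2, the shared partner of EGFR and ERBB3, was not called between the lines with all 10 libraries. It is ENSG00000141736, on chromosome 17 from 39687914 to 39730426 (plus strand). It had 27.6 CPM in the A375 DMSO library, 41.2, 51.3 and 45.1 in A375 with dabrafenib, 24.6, 26.2 and 28.8 in A375-BIR with DMSO, and 41.9, 19.2 and 23.3 in A375-BIR with dabrafenib. A375-BIR dabrafenib replicate 1 stood apart from the other 2 of its group and overlapped the A375 dabrafenib libraries. The lines differed by -0.57 ± 0.31 in dabrafenib (approximate 95% interval -1.33 to 0.19, edgeR adjusted p = 0.139), and without that replicate by -1.13, with an edgeR adjusted p of 0.0142. In DMSO the difference was -0.08 ± 0.34 (-0.92 to 0.76, edgeR adjusted p = 0.867). The responses to dabrafenib were 0.24 ± 0.29 in A375-BIR (edgeR adjusted p = 0.786) and 0.73 ± 0.36 in A375 (edgeR adjusted p = 0.109). MIEN1 and PGAP3 overlap ERBB2 on the other strand with 446 and 45 reads over the 10 libraries, against 231 for ERBB2. As no strand setting of the counting is given, reads of these genes and of ERBB2 cannot be told apart with certainty.

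Within a library, the make-up of the receptor reads needs no scaling between libraries. Of the reads on EGFR, ERBB2 and ERBB3, EGFR took 75.5% to 86.7% in the 6 A375-BIR libraries and 0% to 3.18% in the 4 A375 libraries. ERBB3 took 6.67% to 11.7% and 75.7% to 84.1%. The ranges of the lines did not overlap for either receptor. For ERBB2 the range was 6.67% to 16.9% in A375-BIR against 12.7% to 21.6% in A375, an overlap. There were 6.68 to 13 EGFR reads for each ERBB3 read in A375-BIR and 0 to 0.0378 in A375. These are shares of 3′ end reads, and 37 to 346 receptor reads stand behind each.

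**Figure D2:**
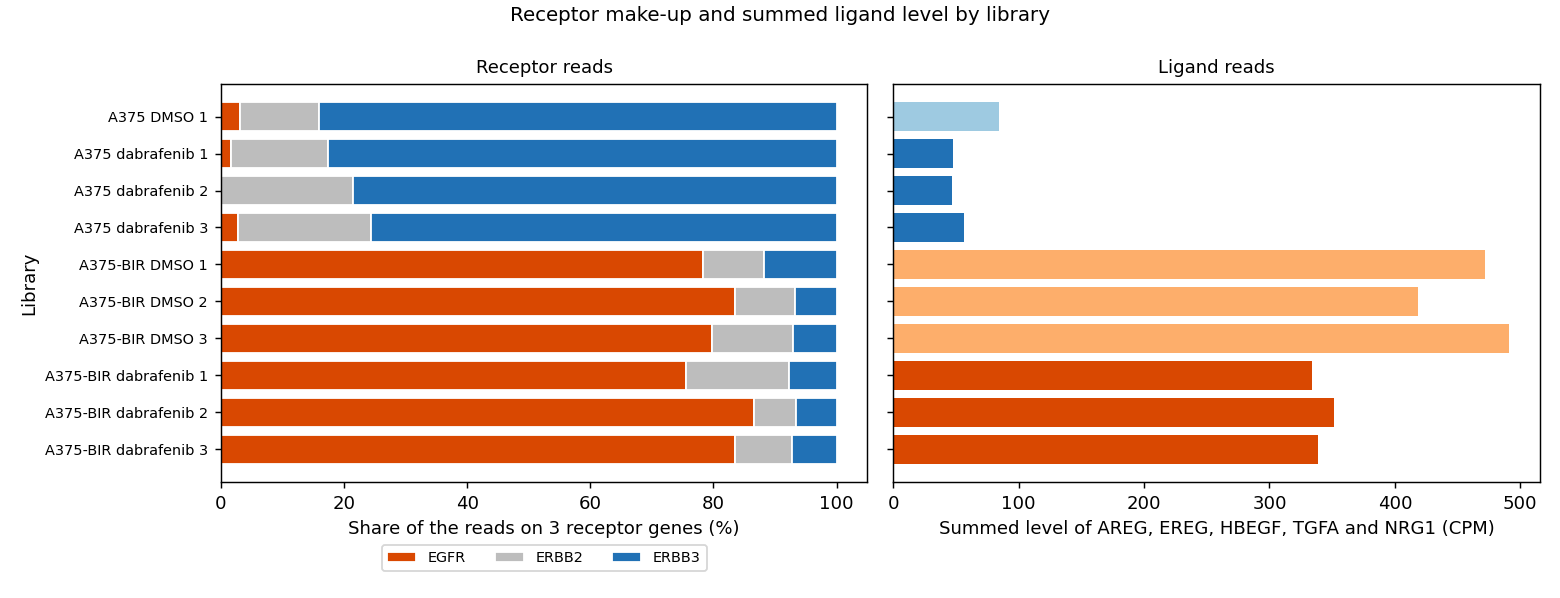
Left, share of the reads on EGFR, ERBB2 and ERBB3 that each receptor took (x axis, percent) in each of 10 libraries (y axis). Right, summed level of the 5 ligand genes in CPM (x axis, coloured by group): the 6 A375-BIR libraries range from 334 to 491 CPM, and the 4 of A375 from 46.9 to 84.1.

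HBEGF, a ligand of EGFR that also binds heparan sulfate, had the most reads of the 5 ligands in every library. It is ENSG00000113070, on chromosome 5 from 140332843 to 140346631 (minus strand). A375-BIR had 374.5, 348 and 393 CPM with DMSO and 246, 276 and 251 CPM with dabrafenib. The A375 DMSO library had 52.7 CPM and the A375 dabrafenib libraries had 33.0, 31.2 and 39.5 CPM. All 4 groups were apart from each other, and within each line the dabrafenib libraries lay below those with DMSO. For A375 this order rests on 1 DMSO library with another run label. Over alternatives the HBEGF change in A375 ran from -0.74 to -0.055 on the log2 scale. HBEGF was higher in A375-BIR by 7.66-fold in dabrafenib (2.94 ± 0.23, edgeR adjusted p = 3.27e-13) and by 7.02-fold in DMSO (2.81 ± 0.26, edgeR adjusted p = 2.00e-11). The response to dabrafenib missed the threshold in A375-BIR, where the means were 372 ± 22.6 CPM with DMSO and 258 ± 16.4 CPM with dabrafenib (SD, n = 3 each). Its change was -0.53 ± 0.15 (approximate 95% interval -0.90 to -0.15), with an edgeR adjusted p of 0.0543 and a rank by p of 267 of 10236 genes. With 1 library left out it ranged from -0.58 to -0.49. The edgeR adjusted p was 0.0114 without A375-BIR dabrafenib replicate 2 and ran from 0.0559 to 0.259 in the other 8 such fits. In A375 the change was -0.65 ± 0.31 (-1.41 to 0.10, edgeR adjusted p = 0.0915).

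TGFA, a further EGFR ligand, was higher in A375-BIR as well, by a smaller factor. It is ENSG00000163235, on chromosome 2 from 70447280 to 70554193 (minus strand). A375-BIR had 64.4, 41.3 and 66.0 CPM with DMSO and 65.7, 50.7 and 67.3 CPM with dabrafenib, against 25.1 CPM in the A375 DMSO library and 14.4, 15.6 and 16.9 CPM in A375 with dabrafenib. The lines did not overlap, and the A375-BIR groups did. The difference was 3.97-fold in dabrafenib (1.99 ± 0.35, edgeR adjusted p = 1.55e-05) and 2.25-fold in DMSO (1.17 ± 0.32, edgeR adjusted p = 0.00237). The response to dabrafenib was 0.11 ± 0.23 in A375-BIR (approximate 95% interval -0.44 to 0.67, edgeR adjusted p = 0.887) and -0.71 ± 0.44 in A375 (-1.79 to 0.38, edgeR adjusted p = 0.212).

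AREG, or amphiregulin, lay near the limit of detection. It is ENSG00000109321, on chromosome 4 from 74445134 to 74455009 (plus strand). A375-BIR had 20.3, 20.2 and 10.2 CPM with DMSO and 1.90, 8.75 and 7.76 CPM with dabrafenib, which are 50 and 10 reads in all. The A375 DMSO library had 6.28 CPM (10 reads), and no A375 dabrafenib library had a read. In A375-BIR the dabrafenib libraries thus lay below the DMSO libraries without overlap. In A375 the 0 reads allow up to 6.08, 6.47 and 15.1 CPM in dabrafenib replicates 1, 2 and 3. These libraries can therefore not each be placed below the 6.28 CPM of the DMSO library. The A375 comparison also rests on that 1 DMSO library, with another run label. In A375-BIR the change was -1.77 ± 0.54 (approximate 95% interval -3.09 to -0.44), with an edgeR adjusted p of 0.0745. Without A375-BIR dabrafenib replicate 2 the change was -2.29 with an edgeR adjusted p of 0.0203, and without replicate 1 it was -1.08. Over the alternatives that gave a value, which DESeq2 did not, the adjusted p ran from 0.0203 to 0.375.

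In A375, AREG fell 2.32-fold when 3 reads were set for the dabrafenib group, which had none, with an edgeR adjusted p of 0.0225. Such a bound takes the reads of the other group, here 10, as exact, and is not a strict lower limit. That call was lost without A375 dabrafenib replicate 1 (edgeR adjusted p = 0.0852) or 2 (0.0761), and with DESeq2 (0.0952). Between the lines AREG was higher in A375-BIR, by 1.84-fold on the same kind of bound in dabrafenib (edgeR adjusted p = 0.0298). In DMSO it was higher by 2.78-fold (1.48 ± 0.60, edgeR adjusted p = 0.0381). The call in dabrafenib was lost with DESeq2 and in 4 of the fits that leave out 1 library: without A375-BIR dabrafenib replicate 2 and without each A375 dabrafenib library, where the adjusted p ran from 0.0502 to 0.106. The call in DMSO was lost without A375-BIR DMSO replicate 1 (1.32, edgeR adjusted p = 0.147) or 2 (1.36, edgeR adjusted p = 0.121), and with DESeq2 (1.46, adjusted p = 0.336).

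NRG1, the neuregulin that binds ERBB3, was read in A375-BIR alone. It is ENSG00000157168, on chromosome 8 from 31639386 to 32767959 (plus strand). A375-BIR had 12.7, 9.07 and 22.01 CPM with DMSO and 20.9, 15.7 and 12.9 CPM with dabrafenib, which are 37 and 36 reads. The 4 A375 libraries had 0 reads, which over the group allows up to 1.88 CPM with DMSO and 2.70 CPM with dabrafenib. NRG1 was 6.63-fold higher in A375-BIR in dabrafenib (edgeR adjusted p = 0.00012) and 7.11-fold higher in DMSO (edgeR adjusted p = 9.06e-05). Both folds set 3 reads for the A375 group and take the A375-BIR reads as exact. In A375-BIR its groups overlapped, and the response to dabrafenib was 0.36 ± 0.42 (approximate 95% interval -0.67 to 1.39, edgeR adjusted p = 0.771). The line with NRG1 reads was the line with the lower level of its receptor gene ERBB3.

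EREG, or epiregulin, is ENSG00000124882, on chromosome 4 from 74365143 to 74388751 (plus strand), next to AREG. It had 0 reads in all 10 libraries. At this depth, levels under 1.09 (DMSO) and 1.49 CPM (dabrafenib) in A375-BIR, and under 1.88 (DMSO) and 2.70 CPM (dabrafenib) in A375, were not detectable.

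HBEGF made up 79.4% to 83.1% of the ligand reads in A375-BIR with DMSO, 73.5% to 78.6% in A375-BIR with dabrafenib and 62.7% to 70.0% in A375. Most of the others were TGFA reads. The summed level of the 5 ligands was 418 to 491 CPM in A375-BIR with DMSO, 334 to 352 CPM in A375-BIR with dabrafenib, 84.1 CPM in the A375 DMSO library and 46.9 to 56.4 CPM in A375 with dabrafenib. In each line the dabrafenib libraries lay below those with DMSO, and A375-BIR in dabrafenib still lay above A375 in DMSO.

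**Figure D3:**
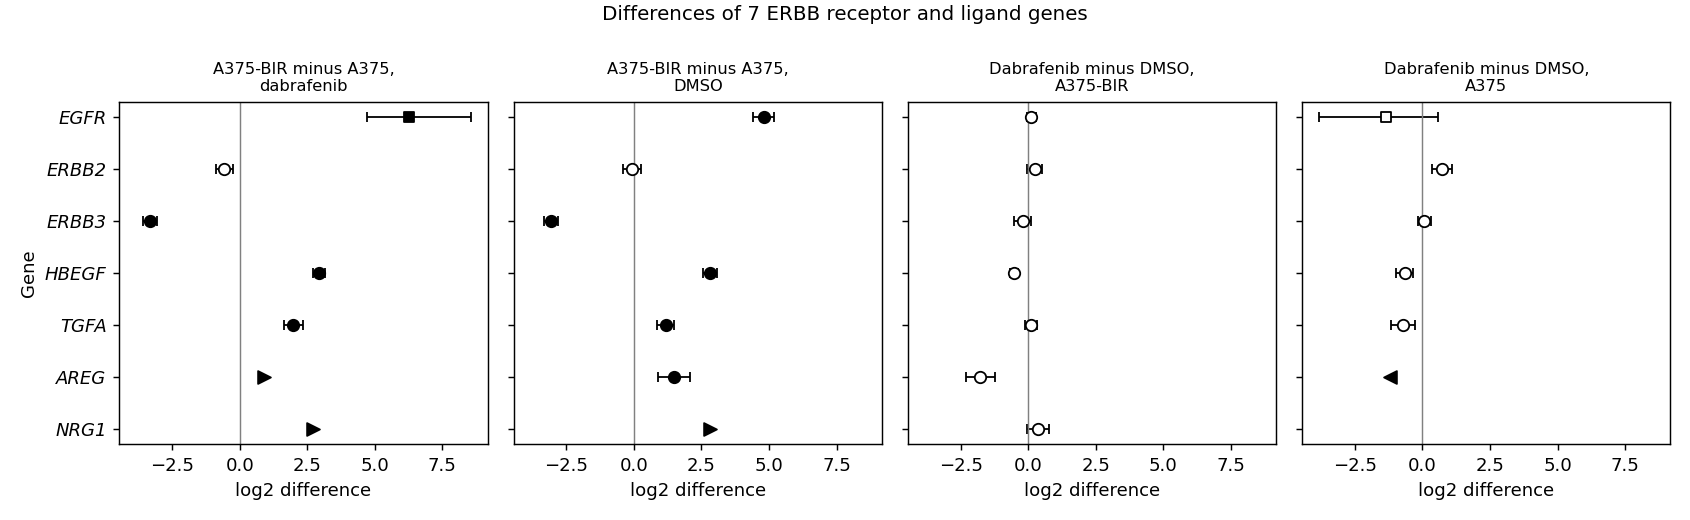
Difference of the 7 tested members on a log2 scale (x axis) in 4 comparisons (panels). Circles are fitted values with standard errors, and squares are ratios of summed reads with exact 95% counting intervals. Triangles are differences with 3 reads set for a group that had none and the other group's reads taken as exact. Filled symbols were called. EGFR, HBEGF, TGFA, AREG and NRG1 lie to the right and ERBB3 to the left in each comparison of the lines, and no symbol is filled in the response of A375-BIR.

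Counted over members, 5 of 7 tested were higher in A375-BIR in dabrafenib and 1 was lower, where 22.6% and 20.2% of all genes tested were called in these directions. In DMSO 5 were higher and 1 lower, beside 25.1% and 26.7% of all genes. Of the genes counted as higher, EGFR, AREG and NRG1 entered the test through A375-BIR alone. In the response of A375, 0 of 6 members with reads were called higher and 1 lower, AREG, beside 17.9% and 20.7% of all genes. In the response of A375-BIR edgeR called 0 of 7 in either direction, beside 1.36% higher and 1.10% lower among all genes. At an unadjusted p under 0.05 edgeR had 2, AREG and HBEGF, which ranked 335 and 267 of 10236 genes by p, and DESeq2 called 0. The share of all genes under that unadjusted p was not computed, here or for the unadjusted counts below. Those counts thus have no background beside them.

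Whether a member responded differently in the lines was tested as the difference of the responses. EdgeR called 0 of 6 members with a value, beside 12.7% of all genes with a more positive and 9.87% with a more negative response in A375-BIR, and 0 passed an unadjusted p under 0.05. DESeq2 called 0. The response of A375-BIR minus that of A375 was 1.42 ± 0.85 for EGFR (edgeR adjusted p = 0.236), 0.13 ± 0.34 for HBEGF (0.831) and 0.82 ± 0.50 for TGFA (0.24). For ERBB2 it was -0.49 ± 0.46 (edgeR adjusted p = 0.469) and for ERBB3 -0.27 ± 0.40 (0.656). The approximate 95% interval for HBEGF, -0.71 to 0.97, leaves room for a difference in either direction.

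The state of the lines was described with SOX10 and MITF, transcription factors of melanocytic cells, and AXL, a receptor kinase. SOX10 had 471 CPM in the A375 DMSO library and 962 ± 27.6 in A375 with dabrafenib, against 41.1 ± 8.48 and 53.8 ± 17.2 in A375-BIR with DMSO and dabrafenib (SD, n = 3 each). MITF had 411, 245 ± 60.7, 160 ± 9.40 and 181 ± 26.8 CPM in the same order. AXL was higher in A375-BIR, as EGFR was, with 10.7, 5.09 ± 5.64, 373 ± 36.4 and 298 ± 29.02 CPM in the same order of groups.

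Across 8 melanocytic markers the summed level was 1442 CPM in the A375 DMSO library, 2843 to 3376 in A375 with dabrafenib, 197 to 212 in A375-BIR with DMSO and 215 to 315 in A375-BIR with dabrafenib. In A375 the markers went both ways with dabrafenib: of 5 tested, 2 were called higher and 2 lower (median -0.16). Among all genes 17.9% were called higher and 20.7% lower. DCT, from 417 CPM to a mean of 1746, and SOX10 were higher. MITF and S100B, from 92.9 CPM to a mean of 36.5, were lower. All 8 markers had reads in at least 1 library, but MLANA had 1 read and TYRP1 5 over the 10 libraries. TYR had 0 in A375-BIR. The lower marker sum of A375-BIR went along with each called difference of a member between the lines, a contrast shared by 4374 genes in dabrafenib. Its part in the differences of the members was not tested. Of 5 keratinocyte markers KRT5, KRT1 and TP63 had 0 reads in the 10 libraries and KRT14 had 2, so that their sum of 25.9 to 69.4 CPM was nearly all KRT10, a keratin. Of the leukocyte markers, CD3E, PTPRC and CD68 had 0, 1 and 211 reads in the 10 libraries. Of 3 endothelial markers CDH5 and VWF had 0 reads, and the sum was at most 1.01 CPM. The 5 fibroblast markers summed to 0 to 12.6 CPM in A375 and to 5.08 to 19.2 CPM in A375-BIR. KRT10 had 146 and 88 reads in A375-BIR with DMSO and dabrafenib and 46 and 47 in A375, and was called higher in A375-BIR in DMSO (0.89 ± 0.33, edgeR adjusted p = 0.0227). CD68 had 91 and 63 reads in A375-BIR and 36 and 21 in A375, and was not called. The part of these genes in the differences of the members was not tested.

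To show which genes had a pattern like that of each main receptor, log2(CPM + 1) was correlated over the 10 libraries with 10177 genes that had a group mean of at least 10 CPM. As these libraries are of 2 lines that differ in 4374 genes in dabrafenib, the values describe a shared contrast and carry no p. For EGFR the highest Pearson correlations were with ARHGAP18 (0.997), TENM3 (0.992), SAV1 (0.990), HES7 (0.989) and NETO2 (0.988). ARHGAP18, a GTPase-activating protein, had 37.0 and 27.5 CPM in A375 with DMSO and dabrafenib, and 141 and 149 in A375-BIR. For ERBB3 they were TRPM8 (0.997), TUBB2B (0.991), ACAN (0.990), NDN (0.990) and ACSS3 (0.990). TRPM8, a cation channel that senses cold, had 57.8 and 80.3 CPM in A375 and 0.282 and 0 in A375-BIR.

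The other 7 genes of the family were mostly too low to test. Reads over the groups A375 DMSO, A375 dabrafenib, A375-BIR DMSO and A375-BIR dabrafenib were 15, 13, 5 and 2 for ERBB4, the fourth receptor, and 9, 14, 1 and 1 for EGF. EPGN had 0, 0, 8 and 6, BTC 0, 1, 0 and 2, and NRG3 1, 0, 2 and 5. In dabrafenib EGF had the reverse order, with a ratio of A375 to A375-BIR of 25.3 (exact 95% counting interval 3.85 to 1071), which was not tested across genes.

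NRG4, a ligand of ERBB4, was called in the response of A375 to dabrafenib. It had 20.7 CPM in the A375 DMSO library and 122, 167 and 226 CPM (lowest, median and highest) in A375 with dabrafenib, against 75.4, 79.6 and 81.3 in A375-BIR with DMSO and 64.7, 98.1 and 148 in A375-BIR with dabrafenib. It rose in A375 by 2.96 ± 0.37 (edgeR adjusted p = 8.11e-08), and in A375-BIR the change was 0.35 ± 0.23 (edgeR adjusted p = 0.527). The difference of these responses was -2.61 ± 0.43, with an edgeR adjusted p of 3.97e-05. Between the lines NRG4 was higher in A375-BIR in DMSO by 1.91 ± 0.36 (edgeR adjusted p = 3.65e-05) and lower in dabrafenib, by -0.70 ± 0.23 (edgeR adjusted p = 0.0157). That last call was lost without A375-BIR dabrafenib replicate 2 (-0.47) and without A375 dabrafenib replicate 2 (-0.68) or 3 (-0.53). It was also lost with DESeq2 (-0.68) and with libraries thinned to the total of the smallest (-0.46). NRG2, a neuregulin, was higher in A375-BIR in DMSO by 2.29 ± 0.64 (edgeR adjusted p = 0.00302), from 5 reads in A375, a call lost with DESeq2 (adjusted p = 0.0574).

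Of the genes that cut or present the ligands, all 6 were tested. In dabrafenib 0 were higher in A375-BIR and 2 lower, beside 22.6% and 20.2% of all genes, with a median of -0.60 beside 0.043. DESeq2 also called 2. These were RHBDF1, an inactive rhomboid that traffics the protease ADAM17, at -2.18 ± 0.25 (edgeR adjusted p = 3.84e-09), and the protease ADAM10 at -0.81 ± 0.23 (edgeR adjusted p = 0.00476). ADAM10 lost its call without A375-BIR dabrafenib replicate 1 (-0.59) or A375 dabrafenib replicate 1 (-0.65), and with thinning (-0.72). ADAM17, which cuts HBEGF, TGFA and AREG, was not called between the lines. In DMSO 1 was higher and 2 lower (median -0.11 beside 0.0052), beside 25.1% and 26.7% of all genes, and DESeq2 called 1. The edgeR calls were CD9, a tetraspanin that associates with the HBEGF precursor, at 1.67 ± 0.55, RHBDF1 at -1.75 ± 0.24 and ADAM10 at -0.90 ± 0.26. CD9 and ADAM10 lost theirs with DESeq2 (adjusted p = 0.0613 and 0.0571) and with libraries thinned to the total of the smallest (0.396 and 0.183).

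In A375, 3 of these 6 were higher with dabrafenib and 0 lower (median 0.64 beside 0), where 17.9% of all genes were higher and 20.7% lower, and DESeq2 called 2. CD9 rose by 2.44 ± 0.56 (edgeR adjusted p = 0.00147), CD44 by 0.75 ± 0.24 (0.0129) and ADAM17 by 0.67 ± 0.27 (0.0462). The ADAM17 call was lost in 10 of 17 alternatives. Among them were DESeq2 (adjusted p = 0.162) and leaving out any 1 of the A375-BIR DMSO or A375 dabrafenib libraries, where the change was 0.56 to 0.72. The CD9 call was lost with thinning (adjusted p = 0.0761). In A375-BIR edgeR called 0 of 6, beside 1.36% higher and 1.10% lower among all genes. At an unadjusted p under 0.05 edgeR had 1, and DESeq2 called 0. The CD9 response differed between the lines by -2.28 ± 0.67 (edgeR adjusted p = 0.0177), and by -1.96 with an adjusted p of 0.0507 without A375-BIR dabrafenib replicate 1. With DESeq2 the adjusted p of that difference was 0.06, and with thinning the difference was -2.03 and not called.

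Of 17 adaptors and effectors that carry the signal inside the cell, 16 were tested. In dabrafenib 1 was higher and 7 were lower in A375-BIR (median -0.47 beside 0.043), beside 22.6% and 20.2% of all genes, and DESeq2 called 5 in place of 8. Over all genes DESeq2 called 3247 of 19169 with reads there, and edgeR 4374 of 10236. In DMSO 0 were higher and 5 lower (median -0.45 beside 0.0052), beside 25.1% and 26.7%, and DESeq2 called 4. EPS8, an EGFR substrate that acts on actin, differed by -2.55 ± 0.27 in dabrafenib and -1.57 ± 0.27 in DMSO. GRB10, an adaptor of receptor kinases, differed by -1.88 ± 0.31 and -1.59 ± 0.32. GAB2, a docking protein, differed by -1.21 ± 0.25 and -2.18 ± 0.23. Among these 3 genes the edgeR adjusted p ran from 4.97e-10 to 0.000181. SHC1, the adaptor that links receptors to RAS, was lower in DMSO, at -1.03 ± 0.20 (edgeR adjusted p = 4.61e-05), and PIK3R1, a regulatory subunit of PI3K, in dabrafenib, at -0.83 ± 0.22 (0.00275), a call lost without A375 dabrafenib replicate 1 (-0.67).

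In A375, 2 of the 16 were higher and 3 lower with dabrafenib (median 0.26 beside 0), beside 17.9% and 20.7% of all genes, and DESeq2 called 2. GAB2 fell by 1.48 on the log2 scale, SHC1 by 0.96 and PIK3R2, a further PI3K subunit, by 1.71, while PIK3R1 rose by 0.77. The edgeR adjusted p of these 4 ran from 9.63e-06 to 0.0251. PIK3R1 lost its call in 5 of 17 alternatives, leaving out A375 dabrafenib replicate 1 or 2 (0.61 and 0.73) among them. With DESeq2 PIK3R1 and PIK3R2 lost theirs (adjusted p = 0.147 and 0.0533). In A375-BIR edgeR called 0 of 16, where only 1.36% of all genes were called higher and 1.10% lower. At an unadjusted p under 0.05 edgeR had 3, and DESeq2 called 0. The difference of responses was called for SHC1 (1.35 ± 0.26), PIK3R2 (1.81 ± 0.57) and GAB2 (0.97 ± 0.35), each more positive in A375-BIR, beside 12.7% of all genes. The GAB2 call was lost in 10 of 16 alternatives, with DESeq2 (adjusted p = 0.15) and without A375-BIR DMSO replicate 1 or 2, A375-BIR dabrafenib replicate 2 or any A375 dabrafenib library (0.72 to 1.04) among them. The PIK3R2 call was lost in 4 of 14: with DESeq2 (adjusted p = 0.143), with the replicate block (0.0608) and without A375-BIR dabrafenib replicate 1 (1.38) or A375 dabrafenib replicate 1 (1.88). DESeq2 called 1 of the 16.

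Of 12 genes that restrain the receptors or route them through endosomes, 11 were tested. In dabrafenib 2 were higher and 2 lower in A375-BIR (median 0.055 beside 0.043), beside 22.6% and 20.2% of all genes, and DESeq2 called 4. The ubiquitin ligase CBL, which marks active EGFR for degradation, was higher by 1.11 ± 0.22 (edgeR adjusted p = 9.25e-05), whereas its relative CBLB was lower, at -1.57 ± 0.33 (0.000222). RNF41, a ubiquitin ligase of ERBB3, was higher by 1.24 ± 0.29 (edgeR adjusted p = 0.000613), and the deubiquitinase USP8 was lower, at -0.76 ± 0.21 (0.00303). With thinning CBLB and RNF41 were not called (adjusted p = 0.132 and 0.176). RNF41 was not called in DMSO (0.18 ± 0.29, edgeR adjusted p = 0.631). In DMSO 5 of the list were higher and 2 lower (median 0.18 beside 0.0052), beside 25.1% and 26.7% of all genes, whereas DESeq2 called 2. Among the edgeR calls were EPS15 at 1.08 ± 0.27, SOCS4 at 1.32 ± 0.36, SOCS5 at 1.34 ± 0.46 and CBLB at -1.56 ± 0.36. SOCS4 and SOCS5 lost theirs with DESeq2 (adjusted p = 0.0527 and 0.127), and EPS15, SOCS4 and CBLB with thinning (1.36, 1.40 and -0.34).

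In A375, 4 of the 11 were higher and 2 lower with dabrafenib (median 0.47 beside 0), beside 17.9% and 20.7% of all genes, and DESeq2 called 3. The endocytic adaptor EPS15 rose by 1.26 ± 0.29, SOCS5 by 1.59 ± 0.51 and LRIG1, a membrane inhibitor of ERBB receptors, by 1.78 ± 0.61, while CBL fell by 1.10 on the log2 scale. The edgeR adjusted p of these 4 ran from 0.000593 to 0.0196. SOCS5 lost its call without A375 dabrafenib replicate 2 (1.25) and LRIG1 without replicate 1 (1.74), and both with DESeq2 (adjusted p = 0.102 and 0.128). In A375-BIR edgeR called 0 of 11, beside 1.36% higher and 1.10% lower among all genes. At an unadjusted p under 0.05 edgeR had 1, and DESeq2 called 0. CBL and EPS15 differed in their responses, by 1.2 ± 0.32 (edgeR adjusted p = 0.00645) and -0.96 ± 0.34 (0.038), where 12.7% of all genes had a more positive and 9.87% a more negative response. The EPS15 call was lost in 9 of 16 alternatives: with DESeq2 (adjusted p = 0.136), no filter (0.0914), the replicate block (0.0645) and thinning (0.358), and without A375-BIR DMSO replicate 1 or 2, A375-BIR dabrafenib replicate 1, or A375 dabrafenib replicate 1 or 2 (-0.94 to -0.88). DESeq2 called 1 of the 11.

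**Figure D4:**
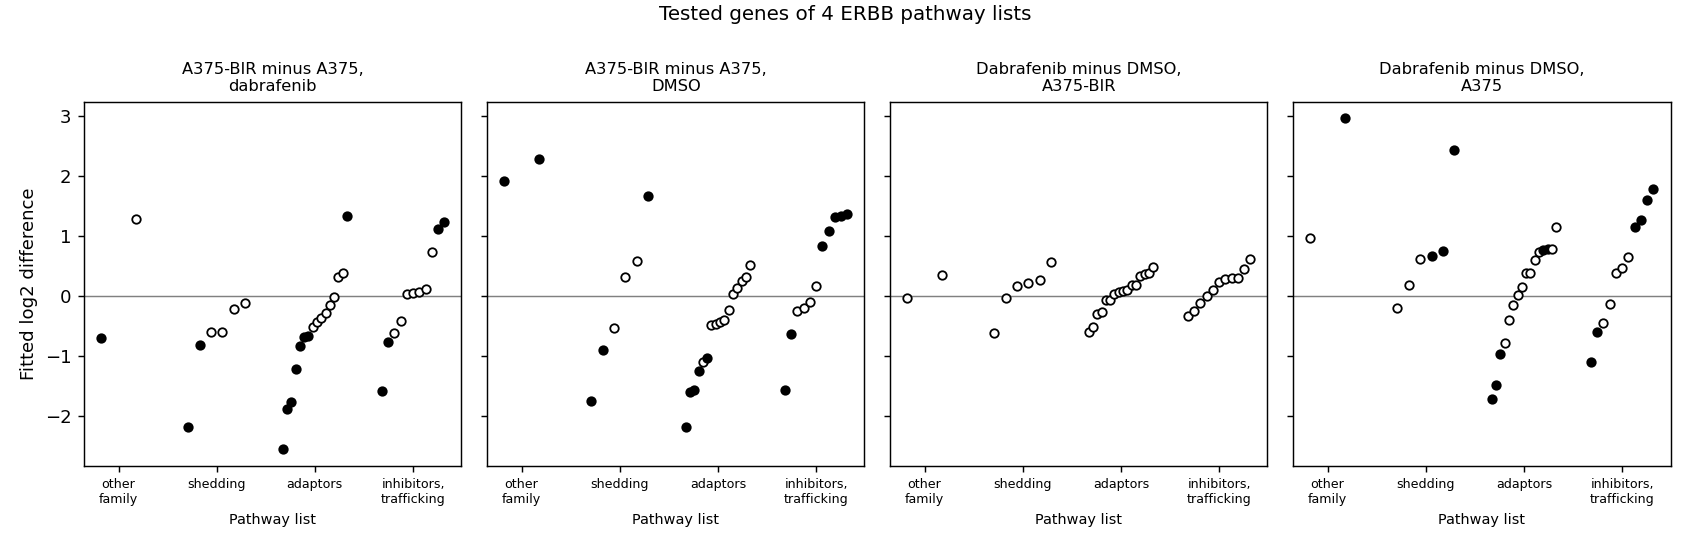
Fitted log2 difference (y axis) of each tested gene of the 4 pathway lists (x axis, ordered by value within a list) in 4 comparisons (panels), with called genes filled. No symbol is filled in the response of A375-BIR, and 7 of the 8 called adaptors lie below 0 between the lines in dabrafenib.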

How the data were processed

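Libraries of 3′ tags (QuantSeq FWD) came from 250 ng of RNA and were read from 1 end over 100 bases, per the labels' protocols. The deposited values are the authors' unnormalized read counts for each gene, and the submitters' processing notes name the build hg38. No aligner, counter, annotation or strand setting is stated there, and each is not given in the sources used here. Of 12 deposited count files, 10 with human identifiers were used. Of 33694 identifiers, 32807 had a symbol, and positions came from GENCODE 29 (GRCh38). Lines for reads on no gene were left out of totals; genes took 20.4% to 31.1% of the lines' sum.

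Counts were filtered with filterByExpr (minimum count 10, in at least 1 library), scaled with TMM factors and tested in edgeR 4.0.16 (R 4.3.3; robust glmQLFit, 1 coefficient per group, 6 residual degrees of freedom, biological coefficient of variation 0.136). A375 DMSO, with 1 library, takes its spread from the other groups. P-values were adjusted by Benjamini and Hochberg over 10236 genes. DESeq2 1.42.0, other scalings, filters, thinning, a replicate block and leaving out libraries were alternatives. Of 19169 genes with reads, DESeq2 called 110 in the response of A375-BIR and 3247 between the lines in dabrafenib. It called 2243 in the response of A375, 3399 between the lines in DMSO and 1071 in the difference of responses. Each is fewer than edgeR called, so that the edgeR shares of all genes are no background for DESeq2 counts. The procedure was tested on simulated data. No pair of libraries within a group agreed within sampling noise. Chi-square per degree of freedom was 1.29 to 1.74 between pairs in A375-BIR with DMSO and 1.09 to 2.45 in A375 with dabrafenib. In A375-BIR with dabrafenib it was 4.26 to 4.89. As the groups share 1 estimate of the spread for each gene, a p-value does not follow the spread of its own groups alone. The labels number biological replicates without saying whether cultures were separate, so p-values measure the spread between these libraries. Exact counting intervals and floors cover counting error only, with no molecular identifiers stated. Approximate intervals come from the fit and include the spread between libraries.

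The members and gene lists were chosen with earlier results of these data known. Named genes are all members, SOX10, MITF and AXL, up to 4 called genes with the smallest p of each pathway list and comparison, and the 5 genes most like EGFR and ERBB3. EGF and the untested family genes were named after their values were seen. A leukocyte marker of the lists is not reported here.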

Additional observations from a re-analysis of the deposited data

Results flagged for a closer look

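The files of A375 DMSO replicates 2 and 3 hold signal outside the comparisons: they list mouse genes, with 224221 and 652439 reads on genes, although the labels state human cells. No ERBB receptor or ligand value was taken from them.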

How the results depend on the processing

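Over 530 values of the members recomputed under alternatives, 499 kept direction and side of the threshold, 13 lost a call, 7 gained one and 11 changed sign. The calls of EGFR, ERBB3, HBEGF, TGFA and NRG1 between the lines in dabrafenib held in every alternative run in which they were tested. The number of members called in the response of A375-BIR, 0, became 1 with no filter on low counts (AREG, -1.80) and 1 with a mean count of at least 50 (HBEGF, -0.50), and ranged from 0 to 2 when 1 library was left out. Between the lines in dabrafenib 6 became 3 with a mean count of at least 50, where 3 members were tested, and ranged from 5 to 7 with a library left out. In the response of A375, 1 became 0 with DESeq2, with thinning to the smallest library and under the mean-count filter of 50, 2 with only the groups compared (ERBB2 0.72, HBEGF -0.67), and 0 to 1 with a library left out. Between the lines in DMSO 6 became 3 under the mean-count filter and 3 with thinning, where TGFA was 0.98 and not called, and ranged from 5 to 6 with a library left out. The difference of responses gave 0 throughout. Apart from fewer members tested under the stricter filter, with thinning and with only the groups compared, the cause was not tested.

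Values that changed sign were never called. With thinning, EGFR and TGFA in the response of A375-BIR became -0.024 and -0.078 and HBEGF in the difference of responses -0.60. Without the filter ERBB3 in the response of A375 became -0.0124. With 1 library left out, the response of A375-BIR ranged from -0.0160 to 0.23 for EGFR, from -0.32 to 0.47 for ERBB2, from -0.33 to 0.15 for ERBB3 and from -0.087 to 0.23 for TGFA. ERBB3 ranged from -0.051 to 0.15 in the response of A375 and from -0.40 to 0.084 in the difference of responses. Leaving out the A375 DMSO library left the response of A375-BIR and the lines in dabrafenib, with 0 and 4 of 5 tested members called, as the filter then asked for 3 libraries and AREG and NRG1 did not pass it.

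A fit with a replicate block called 0, 6, 1, 5 and 0 members in the response of A375-BIR, the lines in dabrafenib, the response of A375, the lines in DMSO and the difference of responses. AREG between the lines in DMSO lost its call (1.38), and ERBB2 there changed sign (0.045). Same-numbered libraries of different groups correlated from -0.33 to 0.25, and those with different numbers from -0.23 to 0.38. These few correlations cannot decide whether libraries were made in pairs. Over all genes, the count called was 252 in the response of A375-BIR (55 to 558 over alternatives), 4374 between the lines in dabrafenib (1764 to 4611), 3948 in the response of A375 (1380 to 4566), 5298 between the lines in DMSO (1842 to 6797) and 2313 in the difference of responses (579 to 3030). Depth limits AREG, NRG1, EREG and EGFR in A375, with 0 to 11 reads a library.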
